A study of Caenorhabditis elegans with 91 samples.

Results

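The libraries described here measured small RNAs in whole Caenorhabditis elegans at 20 °C, in a mutant lacking RDE-4 and in the same mutant with rde-4 put back in neurons. They were chosen by their labels as the 3 libraries of the integrated neuronal transgene and replicates 1 to 3 of the rde-4 mutant, so 6 of 91 libraries in the series and of 64 with small RNA. The mutant strain, BFF 12, is rde-4(ne299). The rescued strain, BFF 16, carries the same ne299 allele and pigSi3, an integrated transgene that joins the selectable cb-unc-119(+) to the fusion Psng-1::rde-4:SL2:yfp, in which the promoter of the synaptic vesicle gene sng-1 drives rde-4 in neurons. This strain is called pigSi3 below. N2 Bristol, the wild type, was measured in 3 libraries beside them. RNA came from adults on their first day, grown on OP-50 bacteria. Further libraries are used for comparison. They are rde-4 replicates 4 to 11, 3 libraries of rde-4(ne299) descendants labelled F3 of a heterozygous BFF 16 parent, 6 libraries of rde-4(ne299) animals carrying the same promoter fusion on the extrachromosomal array pigEx9, and small RNA and mRNA of dissected gonads and isolated neurons of both genotypes. The neuron strains also carry otIs356[rab-3p(prom1)::2xNLS::TagRFP], a red nuclear label driven by the rab-3 promoter. Gonad tests were fitted together with gonads of F3 descendants and of rde-4 animals also labelled sid-1, with and without the sng-1 promoter transgene. Neuron tests were fitted together with wild-type neurons. These further groups entered the estimate of spread.

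RDE-4 binds double-stranded RNA and helps the nuclease Dicer cut it into primary small interfering RNAs (siRNAs). Argonaute proteins carry these to matching transcripts, where RNA-dependent RNA polymerases make many more antisense siRNAs, so the reads counted on a gene mostly report how strongly that gene is targeted rather than how much mRNA it makes. In worms, double-stranded RNA and the siRNA response can pass from one tissue to another and from parent to progeny. The comparison asks which genes' small RNAs differ in the whole animal when RDE-4 is supplied to neurons.

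The 6 libraries held 16337378 to 26724702 counts on genes, with 22.8 to 26.4% of reads in no gene and 14.2 to 16.7% not aligned. A total of 3 counts was worth 0.112 to 0.184 CPM (counts of a gene per 1e6 counts in genes), which limits what can be said of genes near 0. All later CPM values also carry TMM scaling between the libraries of a comparison. Nothing in the labels tells whether replicates came from separate cultures, so the p-values rest on a spread between libraries that may be technical. Reads came from whole animals, in which fewer cells of a type and less RNA per cell cannot be told apart. Small RNA on marker genes of germ cells summed to 2363 to 2644 CPM in pigSi3 and 2398 to 2523 CPM in rde-4, on sperm markers to 102.7 to 134 and 117 to 144 CPM, on neuron markers to 958 to 1104 and 828 to 968 CPM, on muscle markers to 265 to 303 and 251 to 287 CPM, and on intestine markers to 308 to 342 and 347 to 365 CPM. No germ cell or sperm marker passed the test, of 16 and 13 tested. Lower in pigSi3 were 3 of 18 neuron markers (16.7%), 3 of 11 muscle markers (27.3%) and 2 of 16 genes listed for intestine (12.5%), pgp-1 and gon-1. Of these, gon-1 is not specific to intestine, and its means of 59.3 CPM in pigSi3 and 91.6 in rde-4 enter the intestine sums. Over all genes tested 3.94% were lower and 1.92% higher. Of 6 glia, 10 hypodermis and 3 coelomocyte markers none passed.

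Of 12800 genes with enough counts to test, 750 (5.86%) differed between pigSi3 and rde-4 at an adjusted p under 0.05 (edgeR's quasi-likelihood test with Benjamini-Hochberg adjustment, used for every adjusted p here). Small RNA was higher in pigSi3 on 246 genes, 1.92% of those tested, and lower on 504, or 3.94%. The median log2 difference was 0.88 among the higher and -1.11 among the lower genes, against 0.02 over all genes tested, and 105 higher and 295 lower genes changed by more than 1 on the log2 scale. All 750 had CPM that did not overlap between the 3 and 3 libraries, as did 26.8% of all genes tested. Genes called higher took 3.04 to 3.50% of the scaled counts in pigSi3 and 1.36 to 1.54% in rde-4, and those called lower took 1.67 to 1.80% and 3.12 to 3.50%. With the replicate number as a block, the fit called 610 higher (4.77% of genes tested) and 944 lower (7.38%), among them 230 of the 246 and 489 of the 504. The count fell to between 396 and 477 when pigSi3 replicate 1, 2 or 3 was left out, and to 419 and 369 without rde-4 replicate 1 or 2.

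**Figure D1:**
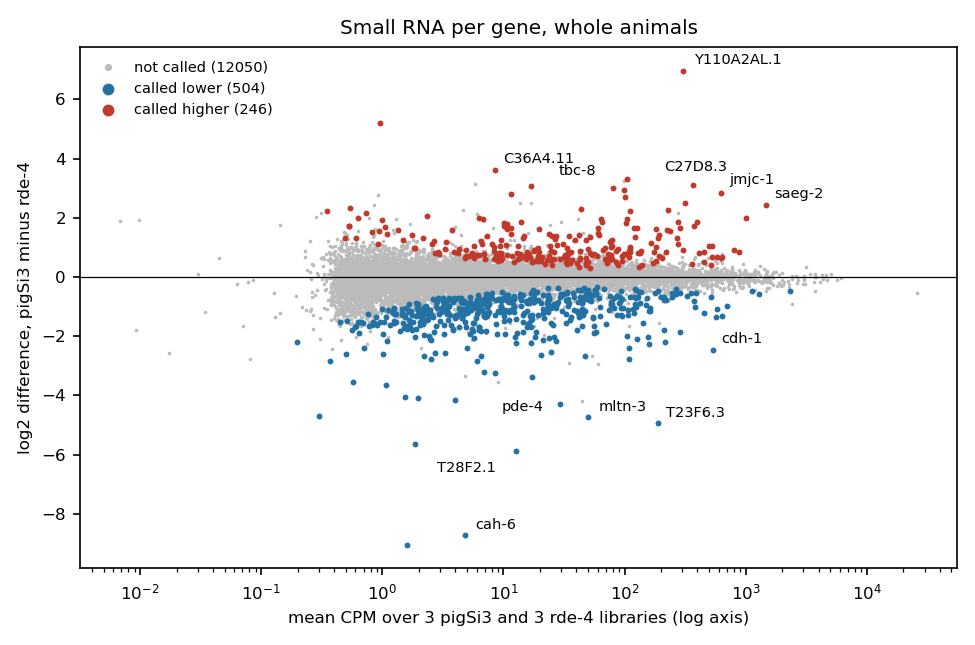
Log2 difference in small RNA between pigSi3 and rde-4 whole animals for each of 12800 genes, against the mean CPM of the 6 libraries on a log axis, with 246 genes called higher in red, 504 called lower in blue and the rest in grey. Y110A2AL.1 (log2 6.97) and cah-6 (-8.73, a fitted value from near 0 counts) stand at the ends of the range, and most called genes lie within 2 of 0.

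Small RNA counted on rde-4 itself was no higher with the transgene. Its level was 86.7, 90.4 and 87.2 CPM in pigSi3 and 109.6, 97 and 90.9 in rde-4, with 127, 147 and 158 CPM in N2, and the difference did not pass the test (log2 -0.17 with SE 0.11, adjusted p = 0.425). In mRNA of isolated neurons rde-4 stood at 304, 287, 289 and 319 CPM in pigSi3 and 3.35, 2.22, 1.97 and 3.83 in rde-4, so the 4 rescued and 4 mutant libraries were far apart (log2 6.71 with SE 0.49, adjusted p = 2.08e-05). Gonad mRNA of rde-4 was 30.9, 36.2 and 31.0 CPM in pigSi3 and 37.8, 24.1 and 32.5 in rde-4 (log2 0.05 with SE 0.18, adjusted p = 0.981). Animals with the pigEx9 array held 3331 to 7960.0 CPM of rde-4 small RNA against 88.1 to 93.8 in pigSi3, when all whole-animal libraries were scaled together. sid-1, which encodes the channel that imports double-stranded RNA, had 546, 565 and 506 CPM in pigSi3 and 543, 531 and 532 in rde-4 and did not pass the test (log2 0.01 with SE 0.10, adjusted p = 0.971). Counts on the C. elegans gene unc-119 did not pass either (log2 0.27 with SE 0.10, adjusted p = 0.139). The transgene carries the cb-unc-119(+) form, so these counts are not a direct measure of the selectable gene on it.

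Among the genes with the largest gain in CPM was saeg-2, whose protein works with SAEG-1 downstream of the cGMP-dependent kinase EGL-4. Its small RNA was 2730.3, 2481 and 2214 CPM in pigSi3 and 473, 454 and 441 in rde-4. N2 held 3857, 3755 and 3011 CPM, so the rescued libraries lay between the mutant and the wild type and overlapped neither. The log2 difference in whole animals was 2.44 (SE 0.13, adjusted p = 3.22e-06). Gonads had 2613 and 2518 CPM in pigSi3 and 460.2, 554 and 456 in rde-4 (log2 2.39 with SE 0.22, adjusted p = 0.000427), and neurons had 3631 and 2947 CPM in pigSi3 and 443 and 566 in rde-4 (log2 2.71 with SE 0.16, adjusted p = 1.17e-08). Set against each other, the whole-animal difference minus that of gonads was 0.04, SE 0.17, adjusted p = 0.932, and minus that of neurons -0.33, SE 0.20, adjusted p = 0.65, so neither contrast passed. In gonads the mRNA moved the other way, at 4.99, 4.51 and 3.66 CPM in pigSi3 and 52.7, 52.1 and 60.7 in rde-4 (log2 -3.64 with SE 0.39, adjusted p = 0.000784). Neuron mRNA of saeg-2 did not pass (log2 0.21 with SE 0.34, adjusted p = 0.845).

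saeg-1, the partner gene, gained less small RNA, with 441, 361 and 324 CPM in pigSi3 and 160.4, 153 and 212 in rde-4 (log2 1.1 with SE 0.16, adjusted p = 0.00242). N2 held 460.0, 391 and 377 CPM, a range that overlaps the rescued one. Its gonad small RNA was 405 and 421 CPM in pigSi3 and 176, 179 and 173 in rde-4 (log2 1.23 with SE 0.22, adjusted p = 0.0212), a call lost without pigSi3 replicate 1, pigSi3 replicate 2 or rde-4 replicate 1 (adjusted p = 0.15, 0.10 and 0.061). Of 11 tested genes of cGMP signalling, 18.2% were higher and 18.2% lower, against 1.92% and 3.94% of all genes tested. The higher ones were saeg-2 and saeg-1, which the list includes by its definition as partners of EGL-4. The list was chosen with earlier results of these data known, so its share of higher genes is no separate support. Lower were tax-4 (log2 -1.72), a cyclic nucleotide-gated channel subunit of sensory neurons, and osm-9 (-0.74), a TRPV channel subunit. Both of these lower genes lay under 15 CPM, and both calls were lost without pigSi3 replicate 1, pigSi3 replicate 2 or rde-4 replicate 2, with adjusted p of 0.071, 0.067 and 0.066 for tax-4 and 0.0503, 0.064 and 0.063 for osm-9, and tax-4 also without rde-4 replicate 3 (0.056).

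Y110A2AL.1 had the largest log2 rise among the called genes. It held 737, 618 and 468 CPM in pigSi3 and 5.05, 5.60 and 4.03 in rde-4, which is a difference of 6.97 on the log2 scale (SE 0.23, adjusted p = 8.3e-08). N2 held only 5.62, 4.08 and 4.08 CPM, the mutant's level and not that of pigSi3. Gonads showed 656 and 536 CPM in pigSi3 and 4.18, 18.9 and 4.83 in rde-4, with the log2 difference at 5.99 and an adjusted p of 0.034 that rose to between 0.10 and 0.23 when any 1 of the 5 gonad libraries was left out. Neurons showed 762 and 925 CPM in pigSi3 and 10.7 and 14.9 in rde-4 (log2 6.06 with SE 0.26, adjusted p = 8.08e-11). Its level was 2.48 to 7.35 CPM in pigEx9 animals, and 241, 5.69 and 5.02 CPM in F3 replicates 1, 2 and 3. Only the first F3 library was above the mutants, all 11 of which lay between 3.95 and 8.77 CPM.

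Several other gains brought small RNA near the N2 level. The JmjC domain gene jmjc-1 had 1188, 1122 and 994 CPM in pigSi3 and 161, 149 and 147 in rde-4 (log2 2.85 with SE 0.11, adjusted p = 1.27e-07), against 1093, 1066 and 1074 CPM in N2. W06A11.4 had 634, 515 and 447 CPM in pigSi3 and 90.6, 84.5 and 110.001 in rde-4 (log2 2.48 with SE 0.16, adjusted p = 1.19e-05), and 573, 549 and 482 CPM in N2. The pigSi3 and N2 ranges of both genes overlap. ZC204.14 had 82.3, 68.5 and 68.5 CPM in pigSi3 and 12.08, 14.5 and 18.02 in rde-4 (log2 2.29 with SE 0.16, adjusted p = 2.39e-05), with 68.0, 82.4 and 62.4 CPM in N2, and its pigSi3 range lies within that of N2. C27D8.3 went past the wild type, with 695, 680.2 and 608 CPM in pigSi3 and 69.6, 62.9 and 99.1 in rde-4 (log2 3.1 with SE 0.25, adjusted p = 8.48e-05) and 389.9, 329 and 203 CPM in N2.

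Other genes rose to levels that N2 did not have. fbxa-193, of the F-box A family that supplies substrate adaptors for protein degradation, had 1910.2, 1702 and 1233 CPM in pigSi3 and 319, 308 and 588 in rde-4 (log2 1.99 with SE 0.25, adjusted p = 0.00114), and 266, 266 and 245 CPM in N2. C53D5.5 had 166, 235 and 165 CPM in pigSi3 and 20.9, 18.1 and 17.7 in rde-4 (log2 3.32 with SE 0.20, adjusted p = 1.19e-05), beside 15.5, 9.03 and 11.5 CPM in N2. tbc-8, whose product acts on Rab GTPases in making dense core vesicles, had 176, 166 and 88.1 CPM in pigSi3 and 15.1, 15.4 and 22.2 in rde-4 (log2 3.02 with SE 0.28, adjusted p = 0.000322), with 3.22, 5.11 and 3.58 CPM in N2. In each of these genes the lowest pigSi3 library was above the highest N2 library. egl-10, which encodes an RGS protein that tunes Go signalling in neurons and muscle, had 79.9, 86.7 and 103.4 CPM in pigSi3 and 29.9, 28.8 and 41.5 in rde-4 (log2 1.43 with SE 0.17, adjusted p = 0.000765).

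**Figure D2:**
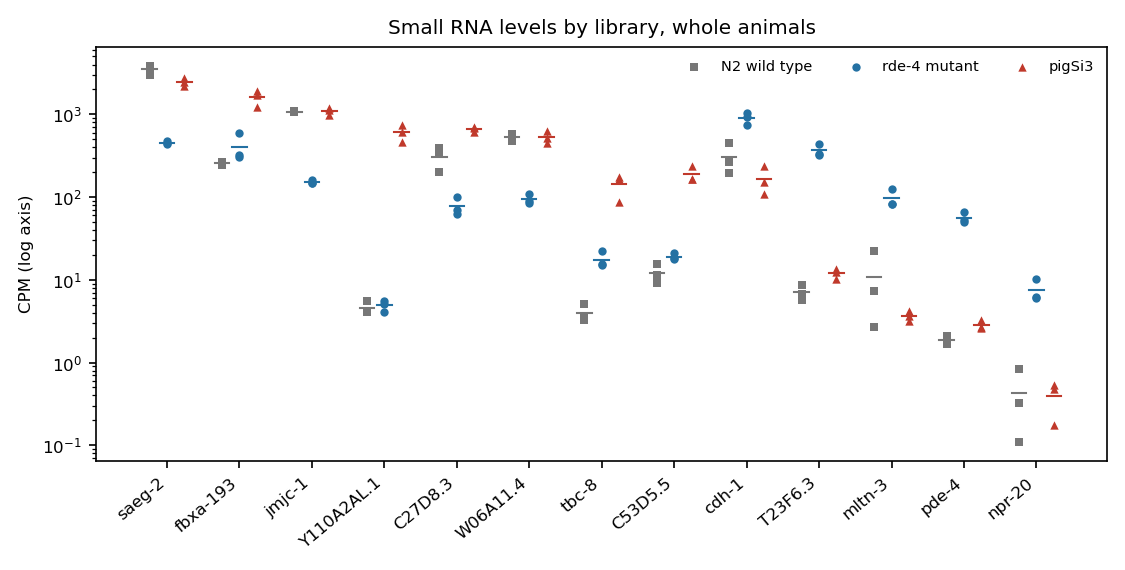
CPM on a log axis for 13 genes in each of 3 N2 (grey squares), 3 rde-4 (blue circles) and 3 pigSi3 (red triangles) libraries, with the mean of each group as a line. The red triangles lie apart from the blue circles in every gene shown, above them for the first 8 and below them for the last 5, while for Y110A2AL.1, fbxa-193, tbc-8 and C53D5.5 the N2 squares lie far below the triangles.

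The strongest losses among well-counted genes included pde-4, which encodes a cAMP phosphodiesterase. Its small RNA was 3.23, 2.58 and 2.72 CPM in pigSi3 and 50.2, 66.2 and 52.4 in rde-4. It came near the wild type, at 2.07, 1.69 and 1.90 CPM in N2, and the loss was -4.30 on the log2 scale (SE 0.16, adjusted p = 1.07e-07). The same loss was measured in gonads, with 2.18 and 1.53 CPM in pigSi3 and 73.2, 61.5 and 72.7 in rde-4 (log2 -5.24 with SE 0.21, adjusted p = 1.01e-06), and in neurons, with 4.14 and 4.93 CPM in pigSi3 and 54.2 and 46.8 in rde-4 (log2 -3.41 with SE 0.43, adjusted p = 0.000146). pde-4 mRNA passed in neither tissue (log2 -0.34 with SE 0.22, adjusted p = 0.893 in gonads and log2 1.31 with SE 0.87, adjusted p = 0.683 in neurons). Of 22 tested cAMP signalling genes, egl-10 was higher and pde-4 and the adenylyl cyclase gene acy-1 (log2 -0.78, adjusted p = 0.00398) were lower. That is 4.55% higher and 9.09% lower, against 1.92% and 3.94% of all genes tested. The call of acy-1 was lost with all 11 rde-4 libraries as the control. Its small RNA passed in neither gonads (log2 -1.16) nor neurons (log2 -0.44).

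npr-20, a neuropeptide receptor gene, had 0.485, 0.176 and 0.536 CPM in pigSi3 and 10.35, 6.15 and 6.01 in rde-4 (log2 -4.16 with SE 0.49, adjusted p = 0.000765), and 0.322, 0.109 and 0.839 CPM in N2. In neurons it had 0 counts in both pigSi3 libraries and 30 in the rde-4 pair, at least 13.1-fold lower by a floor of 3 counts over the group. ndx-1, of the Nudix hydrolase family, had 47.2, 51.7 and 85.3 CPM in pigSi3 and 262, 238 and 247 in rde-4 (log2 -2.02 with SE 0.20, adjusted p = 0.000304). Its small RNA was lower in gonads (log2 -3.13 with SE 0.19, adjusted p = 3.39e-05) and in neurons (log2 -3.0 with SE 0.28, adjusted p = 3.98e-06) too. N2 held 4.24, 5.60 and 5.59 CPM, so pigSi3 came down without reaching the wild type. dpf-6, a dipeptidyl peptidase family gene, was lower, with 297, 286 and 223 CPM in pigSi3 and 688, 674 and 527 in rde-4 (log2 -1.23 with SE 0.17, adjusted p = 0.00162), and N2 held under 1 CPM, with 0.8287, 0.326 and 0.559 CPM. cdh-1, which encodes a cadherin, had 153, 107 and 239 CPM in pigSi3 and 753, 1048 and 934 in rde-4 (log2 -2.45 with SE 0.36, adjusted p = 0.00443). Its gonads showed no such loss, with 832 and 654 CPM in pigSi3 and 812, 929 and 741 in rde-4, and the whole-animal difference minus that of gonads was -2.31, SE 0.37, adjusted p = 0.0211.

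Candidate targets of ERGO-1, an Argonaute that carries 26G small RNAs made with RDE-4 and Dicer, were the list with the largest share of gains. Of 19 tested members, 8 were higher and 0 lower, against 1.92% and 3.94% of all genes, and the median log2 difference was 0.52 (0.02 over all genes). With the block 11 were higher. C36A4.11 had 16.4, 16.2 and 15.2 CPM in pigSi3 and 1.04, 0.776 and 1.84 in rde-4 (log2 3.63 with SE 0.24, adjusted p = 1.63e-05). K06B9.6 rose by 2.01, Y37E11B.2 by 1.78, H09G03.1 by 1.51, C44B11.6 by 1.38, K02E2.6 by 1.27, Y17D7B.4 by 0.79 and W04B5.2 by 0.70. These gains were a small part of the wild-type level. The 8 genes had means of 348 to 1621 CPM in N2, and pigSi3 held 0.355 to 2.31% of that where rde-4 held 0.119 to 1.08%. The other 11 members lay between -0.58 and 0.56, with 7 above 0. The call of W04B5.2 was lost without pigSi3 replicate 1 (adjusted p = 0.076), rde-4 replicate 1 (0.11) or rde-4 replicate 3 (0.058). 3 of the 8, C36A4.11, C44B11.6 and K02E2.6, were above all 11 rde-4 libraries, as were 2.41% of all genes tested.

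In isolated neurons several of the same targets had far more small RNA with the transgene. C44B11.6 stood at 3017 and 1639 CPM in pigSi3 and 25.7 and 12.9 in rde-4, or 6.85 higher on the log2 scale (SE 0.47, adjusted p = 0.00337). Its whole-animal values were 25.8, 19.1 and 19.5 CPM in pigSi3 and 7.83, 8.98 and 7.92 in rde-4. W04B5.2 had 1407 and 958 CPM in pigSi3 and 22.1 and 19.9 in rde-4 in neurons (log2 5.80 with SE 0.24, adjusted p = 7.83e-11), K02E2.6 had 2068 and 1038 CPM in pigSi3 and 28.5 and 32.9 in rde-4 (log2 5.66 with SE 0.38, adjusted p = 0.00059), and F39E9.7, not called in whole animals, had 1146 and 513 CPM in pigSi3 and 29.3 and 31.9 in rde-4 (log2 4.75 with SE 0.50, adjusted p = 0.026). The whole-animal log2 difference minus the neuronal one was -5.52, SE 0.39, adjusted p = 2.18e-06 for C44B11.6, -5.15, SE 0.30, adjusted p = 8.69e-08 for W04B5.2, -4.44, SE 0.38, adjusted p = 1.07e-05 for K02E2.6 and -4.24, SE 0.40, adjusted p = 7.2e-05 for F39E9.7. This test of the difference was chosen after the values were seen. The call of C44B11.6 in neurons was lost without either rde-4 library (adjusted p = 0.16 without replicate 1 and 0.21 without replicate 2). Over the list, 5 of 19 were higher and 0 lower in neurons (median 0.76, with 0.464% of all genes higher there), and 0 of 18 passed in gonads in either direction (median -0.26). F58F9.1, which is not on the list, was the extreme case: neurons had 199 and 178 CPM in pigSi3 and 0 counts in rde-4, at least 147-fold higher by a floor of 3 counts over the group, while whole animals had 1.83, 1.29 and 1.57 CPM in pigSi3 and 0.347, 0.610 and 0.313 in rde-4 (log2 1.92 with SE 0.34, adjusted p = 0.0084).

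Histone genes had gains in 20.3% of their tested members, against 1.92% of all genes. 15 of 74 were higher and 1 lower, with a median log2 difference of 0.38, and with the block 23 were higher and 9 lower. Reads cannot be placed with certainty among near-identical histone copies. Summed over the 74 tested members, small RNA was 5854 to 6542 CPM in pigSi3 and 6167 to 6720 in rde-4. These ranges overlap, so the family total was not higher in pigSi3. his-16 had 23.8, 17.2 and 19.42 CPM in pigSi3 and 2.43, 2.16 and 3.96 in rde-4 (log2 2.80 with SE 0.23, adjusted p = 7.58e-05), his-63 had 42.9, 41.3 and 34.8 CPM in pigSi3 and 16.2, 13.2 and 16.0 in rde-4 (log2 1.39 with SE 0.15, adjusted p = 0.000432) and his-44 had 19.8, 15.8 and 11.8 CPM in pigSi3 and 4.26, 3.66 and 5.38 in rde-4 (log2 1.82 with SE 0.21, adjusted p = 0.000668). his-50 was the lower one (log2 -0.57). In gene order, the second-longest chain of genes called higher, with at most 6 other tested genes between neighbours, held 6 genes and ran from his-16 to his-44. In gonads 6 of 72 histone genes had more small RNA and 0 less (median 0.46, with 0.512% of all genes higher in gonad small RNA). There 9 of 57 had more mRNA and 0 less (median 0.45, with 0.123% of all genes higher in gonad mRNA). his-63 mRNA was 90.2, 41.2 and 60.5 CPM in pigSi3 and 9.34, 10.1 and 5.23 in rde-4 (log2 2.94 with SE 0.33, adjusted p = 0.000993), so both readouts were higher in pigSi3. his-59 (log2 0.86 in whole-animal small RNA and 2.45 in gonad mRNA) and his-45 (1.95 and 2.44) did likewise, though his-59 missed the threshold without pigSi3 replicate 1 or rde-4 replicate 2 (adjusted p = 0.055 and 0.052), and his-45 missed it with the block (adjusted p = 0.051) and without rde-4 replicate 1 or 2 (0.11 and 0.093). The gonad mRNA call of his-45 was lost without rde-4 replicate 1 or 3 (adjusted p = 0.064 and 0.054). No histone gene of 38 passed in neuron small RNA.

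Genes of the small RNA machinery were mostly not called. Over all genes tested 1.92% were higher and 3.94% lower. None of 10 tested genes of 26G biogenesis and none of 13 of the mutator complex and RNA-dependent RNA polymerases passed. Among 19 Argonaute genes 4 were higher (21.1%) and 0 lower, with a median log2 difference of 0.002 over the list. Their summed small RNA was 3464 to 3902 CPM in pigSi3 and 3592 to 3755 in rde-4, ranges that overlap. The 4 were hpo-24 (log2 0.61, adjusted p = 0.00114), alg-1 (0.60) and alg-2 (0.39), which act with microRNAs, and wago-5 (1.59), which acts with secondary siRNAs. The call of hpo-24 held when any 1 library was left out, that of alg-1 was lost without pigSi3 replicate 2, rde-4 replicate 1 or rde-4 replicate 2 (adjusted p = 0.067, 0.054 and 0.069), that of alg-2 without each of the 6 libraries in turn (0.086 to 0.16), and that of wago-5 without each library other than pigSi3 replicate 2 in turn (0.060 to 0.14). drh-2, a Dicer-related helicase gene, was the 1 called member of 15 in RNAi initiation (log2 -1.30, adjusted p = 0.029), and it missed the threshold with the block (adjusted p = 0.10) and without rde-4 replicate 1 or any 1 of the pigSi3 libraries (0.053 to 0.10). sid-2, which takes up double-stranded RNA in the intestine, was lower, with 1.08, 3.52 and 2.80 CPM in pigSi3 and 7.58, 11.36 and 7.12 in rde-4 (log2 -1.81 with SE 0.38, adjusted p = 0.0199), a call lost without pigSi3 replicate 3 (adjusted p = 0.066) or rde-4 replicate 2 (0.073). Of 26 nuclear RNAi and histone methylation genes, jmjc-1 was the 1 called.

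Lists of neuronal genes held more losses than gains, as all genes tested did, with 3.94% lower and 1.92% higher (7.38 and 4.77% with the block). Of 32 synaptic and dense core vesicle genes, tbc-8 was higher, and cpx-1 (complexin, log2 -0.78), rab-3 (-0.83), ida-1 (-0.59) and ric-4 (the SNAP-25 gene, -0.86) were lower. With the block all 4 losses passed. Without pigSi3 replicate 3 none of the 4 passed (adjusted p = 0.065, 0.063, 0.066 and 0.095). Without pigSi3 replicate 1, cpx-1 (0.063), ida-1 (0.082) and ric-4 (0.087) did not pass, without pigSi3 replicate 2 or rde-4 replicate 2, cpx-1 (0.052 and 0.058), rab-3 (0.084 and 0.082) and ric-4 (0.084 and 0.061) did not, and without rde-4 replicate 1, ida-1 (0.079) did not. Ion channels had 6 of 118 lower (5.08%) and 3 higher (2.54%), and chemoreceptors 12 of 231 lower (5.19%) and 4 higher (1.73%), shares near those of all genes. With the block ion channels had 7 lower and 5 higher and chemoreceptors 23 and 6. Neuropeptide genes had 3 of 34 lower (8.82%) and 0 higher, and 8 and 1 with the block. Receptors for peptides and amines had 6 of 65 lower (9.23%) and 1 higher (7 and 2 with the block), and axon guidance genes 3 of 43 lower (6.98%) and 0 higher (5 and 1). Single losses were called in gap junction subunits (inx-13, log2 -2.78), neurotransmitter genes (the glutamate transporter gene glt-3, -1.79) and guanylyl cyclases (gcy-8, of the thermosensory AFD neurons, -1.43). inx-13 had 17.2, 22.3 and 43.6 CPM in pigSi3 and 179, 226 and 168 in rde-4, and 10.04, 10.3 and 9.23 CPM in N2. With all 11 rde-4 libraries as the control the call of inx-13 was lost, as were those of tbc-8, rab-3, ida-1 and ric-4. The calls of glt-3 and gcy-8 were lost without 1 library (glt-3 without rde-4 replicate 1 or 2, adjusted p = 0.054 and 0.051, and gcy-8 without pigSi3 replicate 3, adjusted p = 0.057).

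Of the remaining lists, collagens had 6 of 50 lower and 1 higher (median log2 -0.49, and 13 lower and 1 higher with the block), immune genes 16 lower and 3 higher (12.4 and 2.33% of those tested, and 22 and 6 genes with the block), F-box genes 18 of 274 lower and 5 higher (35 and 12), and nuclear hormone receptors 11 of 145 lower and 2 higher (19 and 5). Homeobox and bHLH genes had 3 of 52 lower and 1 higher (5 and 2 with the block), and heat shock genes 2 of 47 lower and 0 higher (4 and 1). The shares over all genes were 3.94% lower and 1.92% higher. Major sperm protein and related families had 0 of 38 called (1 lower with the block) and spermatogenesis genes 1 of 19, which was lower. Yolk and eggshell genes had 0 of 15 called, but 4 lower and 1 higher with the block. Germline RNA regulators had 1 of 42 higher (1 in each direction with the block), and meiosis genes 1 of 34 higher (8 with the block). Ribosomal protein genes had 1 of 81 higher (1 in each direction with the block), and MATH and BTB genes had 1 lower and 1 higher of 87, but 4 lower and 7 higher with the block.

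**Figure D3:**
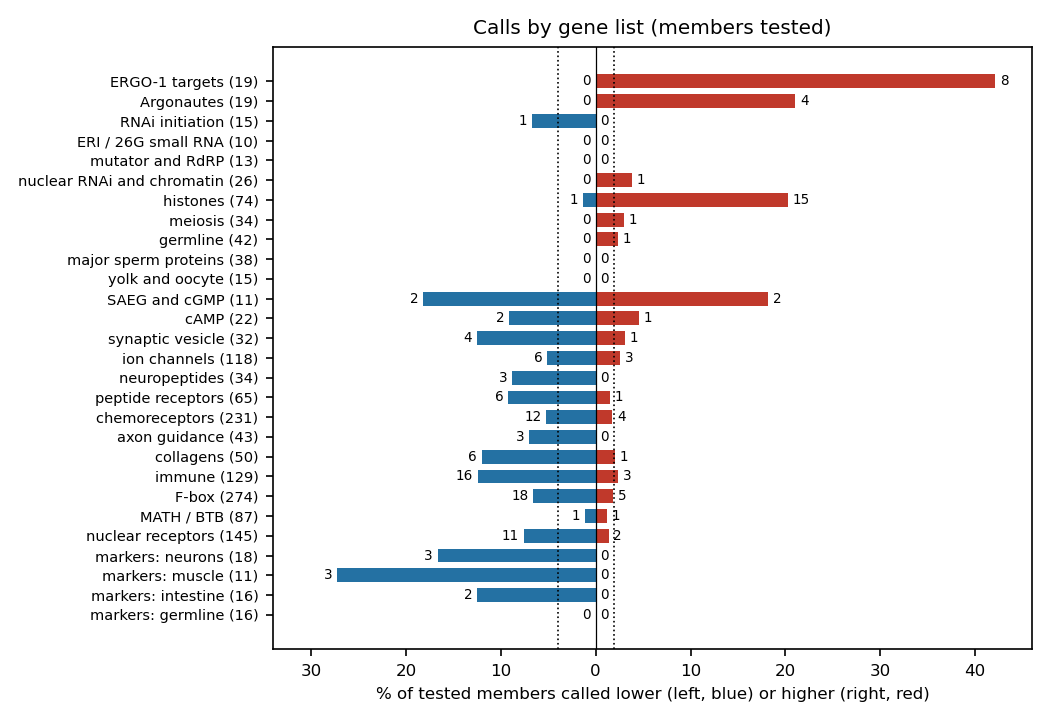
Share of the tested members of each gene list called higher (red, to the right) or lower (blue, to the left) in pigSi3, in percent, with the number of called genes at each bar and the number tested in brackets. The dotted lines mark all genes, at 1.92% higher and 3.94% lower, and the ERGO-1 candidates (8 of 19) and Argonautes (4 of 19) extend farthest to the right with histones (15 of 74).

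The 8 further rde-4 libraries gave another view of each call. All 3 pigSi3 libraries were above all 11 rde-4 libraries for 123 of the 246 higher genes, or 50%, against 2.41% of all genes tested. They were below all 11 for 213 of the 504 lower genes, or 42.3%, against 2.77%. The calls had used the same pigSi3 libraries and 3 of these 11. The excess over all genes was thus partly fixed beforehand and is no separate support. Libraries scaled together, saeg-2 lay between 335 and 504 CPM in rde-4 replicates 4 to 11 and between 2239 and 2842 CPM in pigSi3. F3 animals had 657, 539 and 1018 CPM. W06A11.4 (73.7 to 103.2 CPM in rde-4 replicates 4 to 11, 452 to 660 in pigSi3), pde-4 (42.8 to 73.7 and 2.68 to 3.37), cdh-1 (702 to 1205 and 111.5 to 242) and ndx-1 (197 to 410 and 49.1 to 86.3) also kept apart. F3 values were 280.3, 132 and 379.8 CPM for W06A11.4 and 47.6, 56.0 and 61.9 CPM for pde-4, so W06A11.4 was above the mutants in all 3 and pde-4 within the mutant range in all 3.

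Other strong calls did not hold against these libraries. jmjc-1 lay between 145 and 165 CPM in rde-4 replicates 1 to 5, between 1198 and 1357 CPM in replicates 6 to 8 and between 1441 and 1553 CPM in replicates 9 to 11, with 1005 to 1237 CPM in pigSi3 on the same scale. C27D8.3 had 56.7 to 103.1 CPM in replicates 1 to 5, 84.0 to 153 in replicates 6 to 8 and 571 to 637 in replicates 9 to 11, and T23F6.3 had 210 to 454, 125 to 470 and 9.62 to 12.7 CPM. The range over mutant libraries, which lack the transgene, thus overlapped that of pigSi3 for all 3 genes (614 to 723 CPM in pigSi3 for C27D8.3 and 10.5 to 13.9 for T23F6.3). What separates these replicates is not given in the labels. Against all 11 libraries, 273 of the 750 genes were also called, and 4 of the 750 had a fitted value of the other sign. C27D8.3 (adjusted p = 0.30), jmjc-1 (0.84), tbc-8 (0.36), C53D5.5 (0.55), T23F6.3 (0.089), cah-6 (0.088) and mltn-3 (0.088) did not pass there. C36A4.11 was just outside (0.052), and K06B9.6 (0.35), W04B5.2 (0.59), hpo-24 (0.08), alg-1 (0.50) and alg-2 (0.069) did not pass. The ERGO-1 median was then 0.36.

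**Figure D4:**
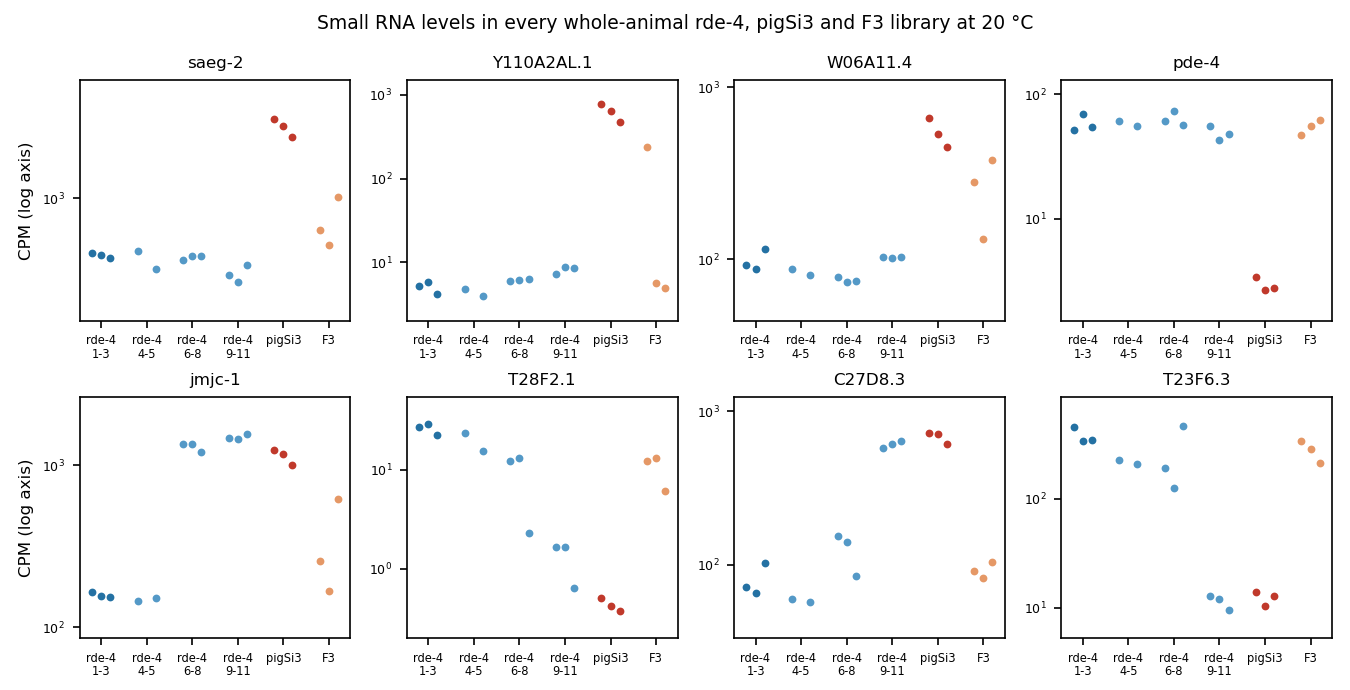
CPM on a log axis in every whole-animal library of rde-4 (blue, replicates 1 to 3, 4 to 5, 6 to 8 and 9 to 11), pigSi3 (red) and F3 (orange), scaled together, for 8 genes. In the upper row the red points stand apart from all 11 blue points, as for saeg-2 with 335 to 504 CPM against 2239 to 2842, and in the lower row some or all of rde-4 replicates 6 to 11 lie near the red points, as for jmjc-1.

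jmjc-1 and C27D8.3 each stood within a run of adjacent called genes in which they were the 1 gene that rose. The run Y47G6A.32, cah-6, jmjc-1, T28F2.2, T28F2.1, ccb-1, col-50 and col-51 held 8 genes, 7 of them lower. cah-6, a carbonic anhydrase gene, had 1 count in the 3 pigSi3 libraries and 675 in the 3 rde-4 libraries, a ratio of 603 after scaling by depth (95% exact interval 107.8 to 23844, counting error only). T28F2.1 had 0.485, 0.410 and 0.371 CPM in pigSi3 and 26.4, 27.5 and 21.2 in rde-4 (log2 -5.88 with SE 0.20, adjusted p = 8.3e-08). The calcium channel subunit gene ccb-1 was lower (log2 -1.31), as were the collagen genes col-50 (-3.65) and col-51 (-5.65), whose pigSi3 libraries held under 1 CPM. Over the mutant libraries T28F2.1 had 15.3 to 28.7 CPM in replicates 1 to 5, 2.29 to 13.1 in replicates 6 to 8 and 0.641 to 1.67 in replicates 9 to 11, and cah-6 had 6.83 to 13.0, 0.239 to 0.458 and 0 to 0.165 CPM. These are the libraries in which jmjc-1 was low in the first 5 and high in the others. In gonads jmjc-1 was lower in pigSi3, with 933 and 1028 CPM in pigSi3 and 2119, 1997 and 1828 in rde-4 (log2 -1.02 with SE 0.14, adjusted p = 0.00527), opposite to whole animals (whole-animal minus gonad log2 of 3.86, SE 0.16, adjusted p = 1.41e-07). Without pigSi3 replicate 1 the gonad call was lost (adjusted p = 0.13).

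The second run held C27D8.3 with 5 lower genes, C27D8.2 (log2 -1.81), C27D8.1 (-4.04), T23F6.1 (-1.58), T23F6.2 (-4.07) and T23F6.3. T23F6.3 had 13.4, 10.1 and 12.5 CPM in pigSi3 and 442, 326 and 331 in rde-4 (log2 -4.93 with SE 0.19, adjusted p = 1.27e-07), and 5.71, 8.65 and 6.77 CPM in N2. In gonads C27D8.3 did not pass (log2 0.13 with SE 0.22, adjusted p = 0.835), and its whole-animal difference was larger by 2.96. T23F6.3 was lower in gonads too, by less (log2 -2.05 with SE 0.27, adjusted p = 0.0041), a call lost without pigSi3 replicate 1 (adjusted p = 0.065). The sources used here do not tell if counting used strand, so reads of overlapping or antisense neighbours cannot be told apart. Over all placed genes, 41 of 234 higher genes (17.5%) had an adjacent tested gene called higher too, against 3.58% of all genes, and 93 of 492 lower genes (18.9%) had one called lower, against 7.5%. The longest runs of adjacent higher genes, with 12 and 4 members, both lay in the stretch beside rde-4 described below. The share among higher genes thus rests in large part on that locus. Gene order was taken from the RefSeq table of another build, and no coordinate from it is given.

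The longest run of gains lay beside rde-4 itself. Counting from 2 tested genes past rde-4, 40 tested genes in a row, Y70G10A.3 to H04D03.3, held 26 called higher, 1 lower and 13 not called, and 38 of the 40 had log2 values above 0. Their median was 0.83, with 0.74, 0.85 and 0.83 in the 3 pairs of same-numbered libraries. This stretch was found by its calls, so its values are given as a description. In windows of 25 tested genes the most called higher was 20, at T07A5.7 to M03C11.8 within the stretch, the most elsewhere was 7, and 67.9% of windows held none. Between the stretch and unc-119 lay 78 tested genes. umps-1, which encodes UMP synthase of pyrimidine synthesis, had 244, 270.3 and 316 CPM in pigSi3 and 94.2, 105 and 115 in rde-4 (log2 1.40 with SE 0.13, adjusted p = 0.000146). unc-50 had 91.1, 82.7 and 99.3 CPM in pigSi3 and 27.6, 25.1 and 33.5 in rde-4 (log2 1.66 with SE 0.13, adjusted p = 7.58e-05) and the JmjC gene jmjd-4 26.2, 23.3 and 38.9 CPM in pigSi3 and 8.32, 9.70 and 10.9 in rde-4 (log2 1.61 with SE 0.22, adjusted p = 0.00168). tbc-8, described above, lies in the stretch, as do T07C4.12 (log2 1.47), the T-box gene tbx-9 (1.38), the splicing factor gene prp-3 (1.32), the cell death inhibitor gene ced-9 (1.19), cnk-1 (1.02), ymel-1 (0.88) and div-1 (0.83). vglu-2, a vesicular glutamate transporter family gene, was the 1 member that was lower (log2 -1.44 with SE 0.15, adjusted p = 0.000382).

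Levels in the stretch were set against the mean of rde-4 replicates 1 to 3 in each library. The median log2 ratio over the 40 genes was 0.68, 0.76 and 0.86 in pigSi3 replicates 1, 2 and 3. It lay between -0.26 and 0.01 in rde-4 replicates 4 to 11, between -0.25 and -0.05 in N2 and between -0.35 and 0.10 in pigEx9 animals. F3 replicate 1 had 0.56, and F3 replicates 2 and 3 had -0.13 and -0.14. For 25 of the 40 genes the pigSi3 libraries were above all 11 rde-4 libraries, as were 2.41% of all genes tested. The stretch had been found by calls on these libraries. In the other tissues the medians lay near 0. In gonad small RNA the median was -0.06, with 14 of 40 above 0 and 0 called higher. The 3 called lower there were R01H10.4 (log2 -4.11), cor-1 (-3.57) and vglu-2 (-2.03), with 1.47% of all genes lower. In gonad mRNA the median was -0.05, with 0 of 34 higher and 2 lower (0.360% of all genes were lower). Neuron small RNA had a median of -0.03, with 0 of 28 called, and neuron mRNA -0.07, with 0 of 31 called. For umps-1 the whole-animal difference exceeded that of gonads by 1.19 and that of neurons by 1.16, and for tbc-8 it exceeded that of gonads by 4.64.

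**Figure D5:**
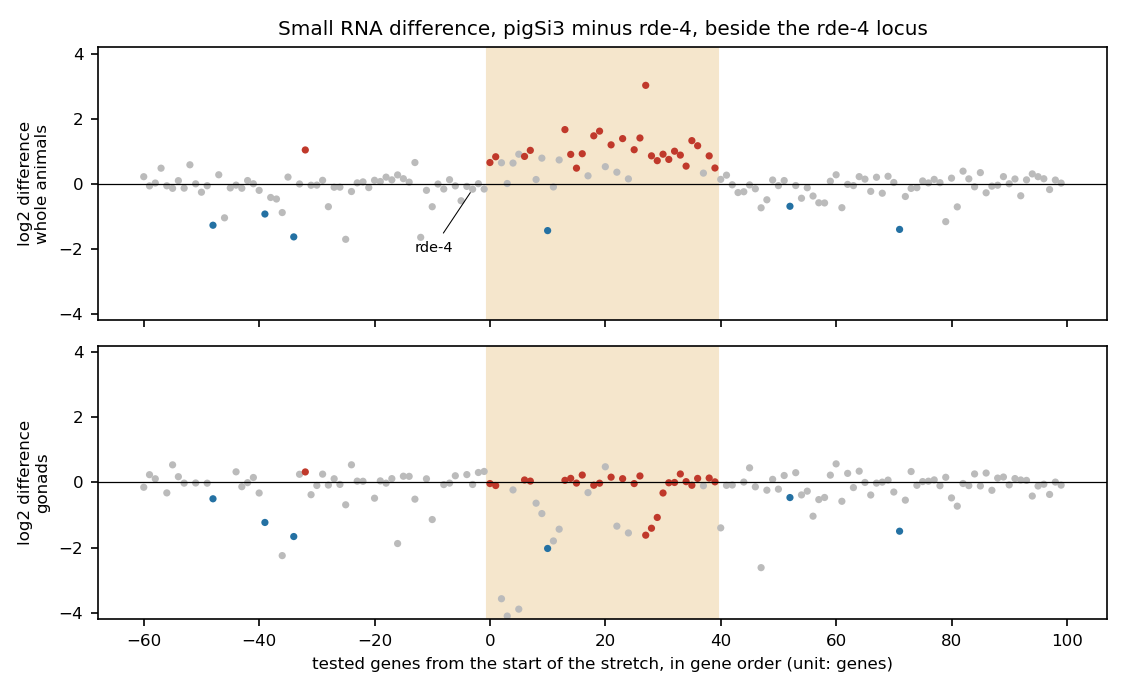
Log2 difference in small RNA between pigSi3 and rde-4 for each tested gene around the stretch, in gene order from its first gene, in whole animals (upper panel) and gonads (lower panel), with the 40 genes of the stretch shaded and colour in both panels showing the whole-animal call (red higher, blue lower, grey not called). In whole animals 38 of 40 shaded points lie above 0, and in gonads their median is -0.06, with rde-4 just to the left of the shading.

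Genes called in whole animals were then looked up in the other tissues. Of the 246 higher genes, 235 were tested in gonad small RNA, where 26 were higher (11.06%, with 0.512% of all genes), 3 lower (jmjc-1, Y47D7A.16 and srh-71), and the median was 0.34. Of the 504 lower genes, 490 were tested there, and 89 were lower (18.2%, with 1.47% of all genes), 0 higher, and the median was -0.90. In neuron small RNA 8 of 195 higher genes were higher (4.10%, with 0.464% of all genes): C44B11.6, F58F9.1, K02E2.6, W04B5.2, Y110A2AL.1, Y17D7B.10, Y82E9BL.18 and saeg-2. Among 272 lower genes 21 were lower there (7.72%, with 0.491% of all genes), and 1, rab-3, was higher. rab-3 had 1765 and 1111 CPM in pigSi3 and 455 and 391 in rde-4 (log2 1.76 with SE 0.20, adjusted p = 8.22e-05) in neurons and 9.33, 6.74 and 7.79 CPM in pigSi3 and 13.0, 16.9 and 12.6 in rde-4 in whole animals. The neuron strains of both genotypes carry the rab-3 promoter fusion named above, and its part in the neuron values was not tested. Depth set limits, since neuron libraries held 735328 to 2530023 gene counts and gonad small RNA libraries 10248531 to 24438992.

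Few of these genes changed in mRNA. In gonads 13 genes were higher (0.123% of 10569 tested) and 38 lower (0.360%). Among 181 genes with more small RNA in whole animals, 5 had more gonad mRNA (C17H11.2, C32D5.8, his-45, his-59 and his-63) and 5 less (saeg-2, Y102A5C.5, Y102A5C.6, Y55F3BR.2 and fkb-5), and among 202 with less small RNA, 6 had less mRNA and 0 more. C32D5.8 had 50.1, 44.4 and 52.1 CPM in pigSi3 and 2.58, 1.89 and 2.36 in rde-4 in gonads (log2 4.37 with SE 0.18, adjusted p = 1.03e-08), beside whole-animal small RNA of 10.35, 12.4 and 9.94 CPM in pigSi3 and 6.44, 5.76 and 5.59 in rde-4 (log2 0.87 with SE 0.17, adjusted p = 0.0116), a call lost without pigSi3 replicate 2 or rde-4 replicate 2 (adjusted p = 0.053 for both). In neuron mRNA 3 genes of 12693 were called (rde-4, M176.5 and Y47G6A.29), 0.0236% and all higher, and none of the 174 higher or 285 lower whole-animal genes tested there was among them. DESeq2 called 133 in those neuron libraries.

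Several genes looked at in every comparison did not pass. B0564.11 (rde-11, a RING domain gene of the RNAi response), bath-45, C38D9.2 and F15D4.5 had log2 differences of 0.01, 0.06, 0.14 and 0.09. rgs-4 (-0.24) did not pass, with 154, 172 and 171 CPM in pigSi3 and 176, 201 and 209.7 in rde-4 and 4.604, 13.2 and 3.58 CPM in N2. crtc-1, a CREB coactivator gene, had 14.6, 47.7 and 94.5 CPM in pigSi3 and 111.7, 209.7 and 175 in rde-4 (log2 -1.66 with SE 0.57, adjusted p = 0.155). All 3 pigSi3 libraries were below the 3 mutant libraries, and the pigSi3 libraries ranged from 14.6 to 94.5 CPM.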

How the data were processed

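Small RNA and mRNA libraries were deposited as whole-number read counts per gene, 1 table per library, and the authors made these counts, per the submitters' processing notes, with cutadapt, FastQC and HTSeq on ce10, and tested with DESeq2, without versions. Per the labels' protocols, RNA was taken in TRIzol and NEBNext or TruSeq kits gave the small RNA libraries. The sources used here name neither the aligner nor the strand setting. Lines for reads in no gene were kept out of totals and tests. The test was edgeR's robust quasi-likelihood F test (version 4.0.16, R 4.3.3, with filterByExpr, scaling by TMM, Benjamini-Hochberg adjustment over the genes tested, threshold 0.05), in 1 fit of 9 libraries (N2, rde-4 and pigSi3, replicates 1 to 3 each), which share 1 estimate of spread. Gonad tests used 1 fit of all 5 gonad groups (rde-4, pigSi3, F3, and sid-1 rde-4 with and without the transgene). Neuron tests used 1 fit of wild type, rde-4 and pigSi3. The standard error is the size of the log2 difference over the root of F. The script was tested on simulated data. Differences between whole animals and a tissue were tested as contrasts in 1 model, and this test was chosen after the data were seen.

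Deviations of same-numbered pigSi3 and rde-4 libraries from their group means correlated at 0.15, 0.27 and 0.34. The replicate numbers were therefore taken to pair the samples. The main fit left this pairing out, and adjusted p-values are from that fit unless the block is named. With the number as a block 1554 genes were called against 750, and that fit is given as an alternative. The pairing comes from the numbers in the labels. No library was a copy of another.

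Among genes that passed 0.05, with CPM that did not overlap and a mean of 5 CPM or more in the group with more, 15 at most were named in each direction by fold and 6 by CPM difference. With no such floor, up to 4 called genes per list with the smallest adjusted p and genes called the same way in other tissues were named. A set of genes of interest, adjacent genes, run members and genes given as exceptions came in besides. Gene lists, members and tests were chosen with earlier results of these data known. Alternatives were RLE scaling (DESeq2's size factors), library totals, no filter, at least 5 CPM in 3 libraries, DESeq2 1.42.0, the block, only the 6 libraries, all 11 rde-4 libraries, and each library left out. Of 21965 gene names, 21270 matched a RefSeq table, used for names and gene order.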

Additional observations from a re-analysis of the deposited data

Results flagged for a closer look

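Differences between whole animals and a dissected tissue passed the test of the difference itself for 78 of 13024 genes against gonads (0.599%) and 68 of 13417 against neurons (0.507%). The values are whole-animal minus tissue differences of pigSi3 minus rde-4 in small RNA, on the log2 scale, for genes named by the fixed rule. Against gonads, a larger gain or a gain in whole animals alone gave positive values in tbc-8 (4.64), jmjc-1 (3.86), C27D8.3 (2.96), W06A11.4 (2.16), C53D5.5 (2.14), ZC204.14 (1.95), C44B11.6 (1.76), umps-1 (1.19) and nhr-5 (1.01). A larger loss in whole animals gave negative values in mltn-3 (-4.61), T23F6.3 (-2.91) and cdh-1 (-2.31). mltn-3 is shown as an example: it had 3.67, 4.16 and 3.17 CPM in pigSi3 and 83.3, 125 and 81.7 in rde-4 in whole animals (log2 -4.73 with SE 0.70, adjusted p = 0.00818), and the call was lost without pigSi3 replicate 3 (adjusted p = 0.054), while gonads had 4.90 and 3.50 CPM in pigSi3 and 4.71, 4.95 and 3.81 in rde-4.

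Against neurons, positive values were found in C53D5.5 (3.44), jmjc-1 (3.08), C27D8.3 (2.85), Y39A1A.9 (2.59), R07H5.9 (2.12), C36C9.1 (2.09), W06A11.4 (1.69) and umps-1 (1.16). Negative values were found in mltn-3 (-5.21), C44B11.6 (-5.52), W04B5.2 (-5.15), T23F6.3 (-4.41), Y32H12A.1 (-3.31), rab-3 (-2.63) and Y23H5A.4 (-1.24). F58F9.1 had a fitted value of -12.7, which is no bound because the rde-4 neurons were at 0 counts. Y39A1A.9 was lower in both readouts, with 8.46, 12.0 and 8.08 CPM in pigSi3 and 33.1, 25.8 and 16.7 in rde-4 in whole animals and a log2 difference of -4.09 in neurons against -1.41. Neuron strains differ from the whole-animal strains by the otIs356 label in both genotypes, and its part was not tested. No value stood apart in the 8 sets examined for an outlying library, which were 6 genes in the 6 pigEx9 libraries and rde-4 mRNA in the 4 neuron libraries of each genotype.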

How the results depend on the processing

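For the whole-animal comparison (750 genes, 246 higher and 504 lower) the replicate block gave 1554 (610 and 944), and all 11 rde-4 libraries gave 340 (124 and 216). Leaving out 1 library gave 369 to 603, and without pigSi3 replicate 3 the share of calls that were higher moved from 32.8 to 45.7%. DESeq2 called 1037, library totals 796, RLE scaling 729, no filter 712, at least 5 CPM 606 and only the 6 libraries 890, all within 1.5 times the reported number. No called gene changed sign under these settings other than 4 with all 11 rde-4 libraries. Of the named genes called, 147 of 148 passed with RLE scaling, 146 of 148 with library totals, 135 of 148 with no filter, 126 of 127 with at least 5 CPM, 147 of 147 with DESeq2, 141 of 148 with only the 6 libraries, 140 of 148 with the block, 79 of 146 with all 11 rde-4 libraries and 105 to 135 of 148 without 1 library. Signs turned for genes near 0: B0564.11 gave -0.016 with at least 5 CPM, -0.15 with all 11 rde-4 libraries and -0.055 to 0.088 without 1 library, sid-1 gave -0.014, -0.20 and -0.023 to 0.052 in the same order, and bath-45 gave -0.030 to 0.13 without 1 library. Neuron small RNA (72 genes) gave 135 with no filter and 72 to 111 without 1 library. Gonad small RNA (228) gave 365 with no filter, 511 with DESeq2, 101 with the block and 33 to 135 without 1 library. Neuron mRNA (3) gave 8 with no filter and 133 with DESeq2. Gonad mRNA (51) gave 109 with DESeq2 and 21 to 33 without 1 library. The cause of these shifts was not tested. The replicate numbers of the gonad libraries did not pair samples by the same check (correlations 0.03 and -0.27 in small RNA), nor did those of 2 neuron libraries allow it. With 2 neuron or gonad small RNA libraries in a group, leaving one out leaves a lone sample that is assumed to vary like the others. Depth limits genes under 0.184 CPM, 3 counts in the shallowest of the 6 libraries.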
